A study of Mus musculus with 12 samples.

Results

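Genes that mark the projection neurons of the striatum, Drd2, Adora2a, Penk, Ppp1r1b, Rgs9 and Pde10a, were followed through RNA-seq of mouse brain and spleen with and without Norad. They were picked by gene symbol, and all 6 were present among the 24062 genes of each tissue's table. The samples were 12 libraries, 3 in each of 4 groups, namely Norad+/+ brain, Norad-/- brain, Norad+/+ spleen and Norad-/- spleen, all from C57BL/6 males aged 10 weeks. Norad-/- mice lack the Norad locus, removed with Cas9 and a pair of guides in the fertilized egg. By the study's methods the lines came from 3 separate founders and 3 mice were used per genotype, and the founder behind each library is not given. The source was given as brain, with no dissection of the striatum described, so each level below is an average over every cell of the brain, and in such bulk RNA a change in the number of cells and a change in RNA per cell cannot be told apart.

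Most neurons of the striatum are inhibitory projection neurons, which fall into a direct pathway class with the dopamine D1 receptor and an indirect pathway class with the D2 receptor. Dopamine acting on D1 receptors raises cAMP in the first class, and acting on D2 receptors lowers it in the second, where the adenosine receptor encoded by Adora2a works against D2. Drd2 encodes the D2 receptor and Penk the precursor of the enkephalins, the opioid peptides of indirect pathway neurons. The products of the other three genes act downstream of the receptors in both classes. Ppp1r1b encodes DARPP-32, an inhibitor of protein phosphatase 1 once protein kinase A has phosphorylated it, Rgs9 a GTPase activating protein that shortens G protein signals, and Pde10a a phosphodiesterase that breaks down cAMP and cGMP.

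Norad is an abundant non-coding RNA that binds PUM2, a protein which represses messages carrying the Pumilio response element, UGUANAUA in RNA letters with N as any base. The element was therefore searched for on the sense strand of the annotated 3' UTR, the longest where a gene has several (GENCODE M21 on GRCm38). The search shows which of the 6 messages hold this exact form. Of all genes with an annotated 3' UTR, 23.2% held at least 1 copy. Ppp1r1b, Penk and Pde10a held 1 copy each, shown here with the element in capitals and the neighbouring bases of the 3' UTR in lower case, 5' to 3' on the strand of the message.
Ppp1r1b, chr11:98357786-98357793, plus strand: uaauaaaucuuUGUAAAUAauu
Penk, chr4:4133565-4133572, minus strand: aaaugcuuauuUGUAUAUAaauauaauaaa
Pde10a, chr17:8986409-8986416, plus strand: cucagacaaggUGUAAAUAaauucauaauu
The copy in Ppp1r1b ended 3 bases before the annotated end of the message, that in Penk 34 bases before it and that in Pde10a 232 bases before it. Among genes with a 3' UTR of a length within 25% of theirs, 14.6% held the element for Ppp1r1b, 6.39% for Penk and 59% for Pde10a, whose longest 3' UTR runs to 4992 bases. In Pde10a the copy lay in 1 of 8 annotated coding transcripts. Drd2 and Adora2a held none in 3' UTRs of 1083 and 848 bases. Rgs9 held 3 copies in the long 3' UTR of a transcript with a reading frame of 232 codons, and none in the transcript with the longest reading frame, of 675 codons. Among genes with a 3' UTR of a length like that long one, 40.5% held the element, and 7.19% of all genes held 2 or more copies. Such matches describe the annotated sequence and say nothing of binding, and the FPKM per gene do not separate the transcripts.

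On GRCm38 the genes lie apart from each other. Drd2 (ENSMUSG00000032259) is at chr9:49340627-49408177, Adora2a (ENSMUSG00000020178) at chr10:75316877-75334784 and Penk (ENSMUSG00000045573) at chr4:4133531-4138819. Ppp1r1b (ENSMUSG00000061718) is at chr11:98348404-98357796 and Rgs9 (ENSMUSG00000020599) on the same chromosome at chr11:109225355-109298129. Pde10a (ENSMUSG00000023868) spans 461277 bases at chr17:8525372-8986648. Exons of Penk overlap A830012C17Rik and exons of Ppp1r1b overlap 1700003D09Rik, both on the opposite strand, and whether the counting used strand is not given, so reads of these partners could enter the values.

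Levels are given as FPKM, fragments per kilobase of transcript and per unit of sequencing depth, a scale per length on which genes can be compared. Depth, estimated from the smallest steps of the values, was 28.4 to 36.6 M reads per library. Norad itself was at 206 to 635 FPKM in the Norad+/+ brains, at 42.9 to 62.0 in the Norad+/+ spleens and at no more than 0.0173 in any Norad-/- library, so the genotype labels held. Norad+/+ brain replicate 3 and Norad+/+ spleen replicate 3 stood apart from their tissues, with a median Spearman correlation of 0.949 and 0.948 against 0.973 to 0.979 and 0.961 to 0.971. Norad-/- brain replicate 3 held pituitary RNA, with the 12 pituitary genes summing to 1344 FPKM against 0.838 to 1.51 in the other brains, 12 of 12 detected there and 4 to 7 of 12 at 0 elsewhere. Norad+/+ spleen replicate 3 held RNA of other organs, with exocrine pancreas genes at 252 FPKM in sum against 0.162 to 0.25, liver genes at 107 against 0.163 to 0.531 and pan-neuronal genes at 33.9 against 7.48 to 10.8.

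In brain the 6 genes kept much of one order. Penk was the highest and Ppp1r1b the next in all 6 libraries, and Adora2a was the lowest in all 6. Penk ran from 235 to 462 FPKM and ranked between 35 and 110 among the 24062 genes, without overlapping Ppp1r1b at 89.2 to 149 FPKM. Rgs9 at 11.6 to 30.6, Drd2 at 17.1 to 20.6 and Pde10a at 8.89 to 28.1 exchanged ranks 3 to 5 from library to library, so their order did not differ beyond the spread. Adora2a, at 6.36 to 9.35, overlapped the range of Pde10a by its top value. All 6 were expressed in every brain library. With whole brain sequenced and no other region beside it, this does not show that their RNA came from the striatum. The 21 other striatal identity genes described below all averaged 1 FPKM or more in brain as well. Among the 4 most abundant of these were Scn4b and Rasd2, at means of 35.7 and 25.8 FPKM.

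The genes differed in how much they varied. Drd2 was the steadiest, with an SD of 0.11 on the log2(FPKM + 0.1) scale over the 6 brains and a ratio of highest to lowest value of 1.2. Of the 13051 genes tested in brain, 83.1% had a larger SD. Adora2a, with an SD of 0.19, stood at the median of all genes (0.195). Ppp1r1b reached 0.28 and Penk 0.42. Rgs9 with 0.49 and Pde10a with 0.62 varied the most, and 8.57% and 4.77% of genes varied more. These SDs include any difference between genotypes.

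**Figure D1:**
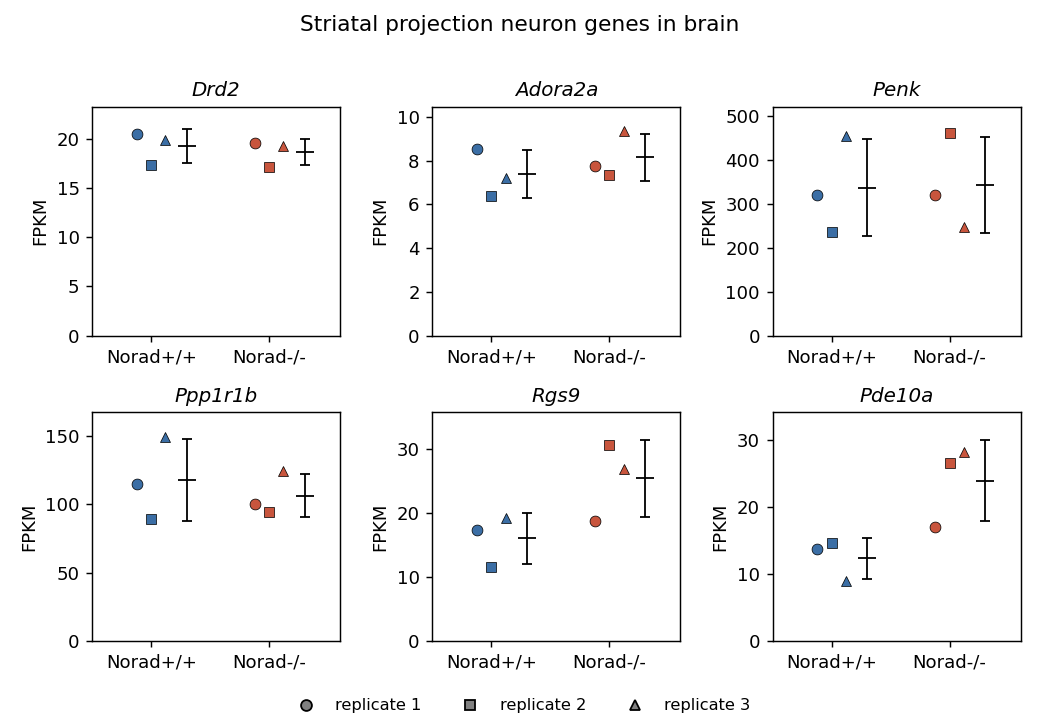
Level of each of the 6 genes in the brain libraries, in FPKM, for Norad+/+ (blue) and Norad-/- (red), with symbols for the replicate number and bars for the mean and SD of 3 libraries. Pde10a is the gene whose groups do not overlap, at 8.89 to 14.6 FPKM against 17 to 28.1, and Drd2 lies between 17.1 and 20.6 in all libraries.

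Whether loss of Norad altered these messages in brain was asked with limma on log2(FPKM + 0.1), with p adjusted by Benjamini-Hochberg over the 13051 genes that averaged 1 FPKM or more in brain and a threshold of 0.05. None of the 6 genes passed. The test called 2 genes in all, 0.0153% of those tested, 1 of which was Norad itself, and at an unadjusted p under 0.05 it gave 864 genes (6.62%). At that unadjusted level stood 2 of the 6, Pde10a and Rgs9, both higher in Norad-/-. The other 4 had differences from -0.13 to 0.14. The median difference of the 6 was 0.09, against 0.02 for all genes tested.

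The receptors came first in the pathway and differed little. Drd2 was at 20.6, 17.4 and 19.9 FPKM in Norad+/+ replicates 1 to 3 and at 19.6, 17.1 and 19.3 in Norad-/-. The groups covered the same range, with means of 19.3 ± 1.68 and 18.7 ± 1.34 (SD, n = 3 each). The log2 difference, Norad-/- minus Norad+/+ here and throughout, was -0.05 with a 95% confidence interval of -0.31 to 0.22 (limma, adjusted p = 0.910). Adora2a was at 8.55, 6.36 and 7.22 FPKM in Norad+/+ and at 7.77, 7.33 and 9.35 in Norad-/-. The groups overlapped, and the highest value belonged to the library with pituitary RNA. Its difference was 0.14 with an interval of -0.22 to 0.50 (limma, adjusted p = 0.794), and it was 0.25 without Norad+/+ replicate 1, 0.045 without Norad+/+ replicate 2 and 0.0427 without Norad-/- replicate 3.

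Penk, the peptide precursor, was at 320, 235 and 454 FPKM in Norad+/+ and at 321, 462 and 247 in Norad-/-. Each genotype held a low, a middle and a high library, and the means of 336 ± 110 and 343 ± 109 (SD, n = 3 each) were closer than any of the values within a group. The difference of 0.03 had the widest interval of the 6 genes, -0.73 to 0.79 (limma, adjusted p = 0.975), so these libraries do not exclude a change of a size within it. The cerebellar content of the libraries differed beside Penk. The highest values, in Norad+/+ replicate 3 and Norad-/- replicate 2, came with a sum over 8 cerebellar neuron genes of 353 and 401 FPKM. The lowest, in Norad+/+ replicate 2 and Norad-/- replicate 3, came with 576 and 578. The remaining libraries, both near 320 FPKM of Penk, had cerebellar sums of 612 and 374, and the part of this content in the spread of Penk was not tested.

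Ppp1r1b, the inhibitor of protein phosphatase 1, was at 115, 89.2 and 149 FPKM in Norad+/+ and at 100, 94.3 and 124 in Norad-/-. The Norad-/- values all lay within the Norad+/+ range. The difference was -0.13 with an interval of -0.64 to 0.39 (limma, adjusted p = 0.867).

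Rgs9, which speeds the shutdown of G protein signals, was at 17.4, 11.6 and 19.1 FPKM in Norad+/+ and at 18.7, 30.6 and 26.8 in Norad-/-. The groups overlapped by 1 library on each side, Norad+/+ replicate 3 lying just above Norad-/- replicate 1. The means were 16.0 ± 3.95 and 25.4 ± 6.05 (SD, n = 3 each), a log2 difference of 0.66 with an interval of 0.05 to 1.28 (limma, unadjusted p = 0.0387, adjusted p = 0.718). By unadjusted p it stood at place 689 among all genes tested. Without Norad+/+ replicate 2, its lowest library, the difference was 0.45.

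Pde10a, the phosphodiesterase, was at 13.7, 14.6 and 8.89 FPKM in Norad+/+ and at 17, 26.5 and 28.1 in Norad-/-. It was the only one of the 6 whose groups did not overlap in brain, as was the case in either direction for 17.1% of all genes tested. The means were 12.4 ± 3.05 and 23.9 ± 6.03 (SD, n = 3 each), a log2 difference of 0.94 with an interval of 0.30 to 1.58 (limma, unadjusted p = 0.0111, adjusted p = 0.690, place 204). The lowest value was in Norad+/+ replicate 3 and the highest in the library with pituitary RNA. Norad+/+ replicate 3 also differed from the other brains by transcript length, with a median log2 difference of 0.08 for genes with a longest transcript under 2 kb and of -0.10 at 6 kb and over, and the longest Pde10a transcript has 7769 bases. The difference of Pde10a was 0.72 without that library and 0.58 (adjusted p = 0.428) without replicate 3 of both genotypes. The part of transcript length and of pituitary RNA in it was not tested.

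**Figure D2:**
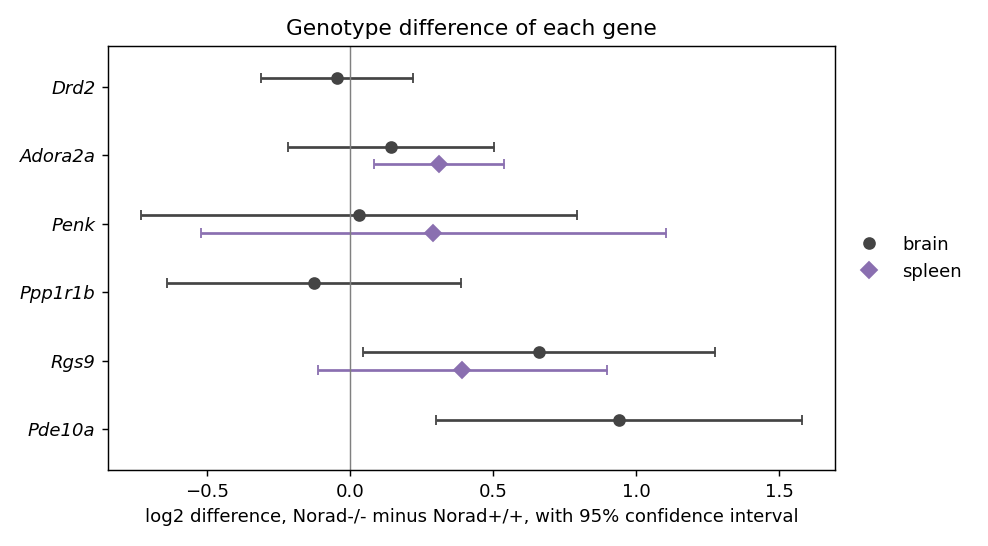
Log2 difference of each gene, Norad-/- minus Norad+/+, with its 95% confidence interval from limma (3 libraries per group), for brain (circles) and spleen (diamonds), where genes under a mean of 1 FPKM in spleen have no diamond. The intervals of Rgs9 and Pde10a in brain and of Adora2a in spleen lie above 0, and none of the differences passed after adjustment.

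Ratios to Drd2 within a library do not depend on the scaling of the library. Drd2 varied little across the brains, so these ratios largely repeat the values above and are no separate evidence. Pde10a over Drd2 was 0.665, 0.839 and 0.446 in the Norad+/+ brains and 0.865, 1.55 and 1.46 in the Norad-/- brains. The groups did not overlap, with the 2 nearest values 0.839 and 0.865. Rgs9 over Drd2 was 0.846, 0.667 and 0.960 against 0.956, 1.78 and 1.39. Adora2a over Drd2, the receptor pair of the indirect pathway, stayed between 0.362 and 0.486 in all 6 brains, and its groups overlapped. Penk over Drd2 ran from 12.8 to 26.9, with the lowest and the highest both in Norad-/- brains.

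The 6 genes did not vary as a unit across the brain libraries. Over the 6 libraries the Pearson correlation of log2 values was highest for Drd2 with Ppp1r1b (0.707), for Rgs9 with Pde10a (0.644) and for Drd2 with Adora2a (0.593). It was negative for Pde10a with Drd2 (-0.452) and with Ppp1r1b (-0.432). These values describe 6 libraries of 1 tissue, with no test, and include any difference between genotypes. The mean of the standardised values of the 6 genes was lowest in Norad+/+ replicate 2 (-1.11) and highest in Norad-/- replicate 3 (0.56). The genes outside the 6 that correlated most with this mean were Frg1 (r = 0.991), Sema6d (0.981), Mbip (0.98), Rnf39 (0.963), Kcnab1 (0.958), Kcnj2 (0.953), Pop1 (0.948) and Ppp2r5c (0.945). All 8 had their lowest value in Norad+/+ replicate 2, and for some that value was isolated. Kcnab1, a potassium channel subunit, was at 1.41 FPKM there against 32.1 to 38.8 in the other brains. Sema6d, a semaphorin, was at 3.54 against 12.8 to 17.4. Of the 13051 genes tested, 30 (0.23%) had 1 brain library more than 4 times below the lowest of the others, and none of the 6 striatal genes did.

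The partners of these genes in dopamine and cAMP signalling gave the setting. Of 26 genes of this kind, 22 were tested in brain, none passed, and 13 had a difference above 0 and 9 below, with a median of 0.06 and 4 at an unadjusted p under 0.05. The groups did not overlap for 5 higher and 2 lower genes, beside 17.1% of all genes tested in brain in either direction. The 4 most abundant were Ppp3ca, the catalytic subunit of calcineurin, Prkacb, a catalytic subunit of protein kinase A, Arpp21, a phosphoprotein of dopamine-responsive neurons, and Ppp1ca, a catalytic subunit of protein phosphatase 1. Their means ran from 405 FPKM for Ppp3ca to 110 for Ppp1ca. Ppp3ca was at 383 ± 36.3 against 426 ± 28.0 FPKM and Prkacb at 146 ± 10.9 against 136 ± 1.41 (SD, n = 3 each). Arpp19 was chosen after its values were seen. It encodes a small phosphoprotein that inhibits protein phosphatase 2A, and it was at 70.2, 92.1 and 54.9 FPKM in Norad+/+ and at 97.9, 136 and 168 in Norad-/-. Its groups did not overlap, and the difference of 0.88 did not pass (limma, adjusted p = 0.690). Drd1a, the D1 receptor gene and also chosen after its values were seen, was at 6.71, 6.00 and 6.90 against 8.03, 7.13 and 8.42 FPKM. The groups again did not overlap, and the difference was 0.26 (limma, adjusted p = 0.718). Genes of the direct and indirect pathways were not tested against each other. The 2 genes that were lower without overlap were Ptpn5, a tyrosine phosphatase of striatal neurons, at 62.7 to 72.8 against 57.3 to 60.1 FPKM, and Pde7b, a cAMP phosphodiesterase, at 13.8 to 15.2 against 12.3 to 12.8, with differences of -0.22 and -0.24 (limma, adjusted p = 0.718 and 0.710).

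Genes of the opioid and adenosine pathways, which hold the enzymes that process the enkephalin precursor and the other adenosine receptors, numbered 15. Of these 11 were tested in brain and none passed, with 9 above 0 and 2 below, a median of 0.25 and 2 at an unadjusted p under 0.05. The groups did not overlap for 4 higher and 2 lower genes, beside 17.1% of all genes tested in brain in either direction. Cpe, carboxypeptidase E, was at 625 ± 104 against 622 ± 57.3 FPKM (SD, n = 3 each). Pcsk2, prohormone convertase 2, was at 70.3, 68.8 and 61.9 FPKM in Norad+/+ and 80.8, 78.6 and 79.0 in Norad-/-, which did not overlap, with a difference of 0.25 (limma, adjusted p = 0.718). Adora1, the A1 receptor gene, was at 82.5, 79.3 and 48.9 against 91.7, 88.4 and 88.4 FPKM. Its groups did not overlap either, its lowest value was in Norad+/+ replicate 3, and the difference was 0.39 (limma, adjusted p = 0.718). Pdyn, the dynorphin precursor of direct pathway neurons, was chosen after its values were seen and was at 5.47, 4.95 and 5.14 against 6.33, 6.22 and 7.18 FPKM, a difference of 0.34 (limma, adjusted p = 0.690). The lower genes without overlap were Mme, a peptidase that degrades enkephalins, at 1.85 to 1.93 against 1.61 to 1.82 FPKM, and Entpd1, an enzyme that breaks down extracellular ATP, at 3.07 to 3.17 against 2.86 to 2.91, with differences of -0.14 and -0.11 (limma, adjusted p = 0.746 and 0.753).

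Other identity genes of the striatum lay on both sides of 0. All 21 were tested in brain and none passed, with 7 above 0 and 14 below, a median of -0.05 and 3 at an unadjusted p under 0.05. The groups did not overlap for 2 higher and 3 lower of them, beside 17.1% of all genes tested in brain in either direction. Their summed level was 253 to 287 FPKM in Norad+/+ and 264 to 299 in Norad-/-. Scn4b, a sodium channel subunit, was at 36.6 ± 6.92 against 34.7 ± 2.28, and Meis2, a transcription factor, at 45.0 ± 1.30 against 44.1 ± 0.797 (SD, n = 3 each). The 12 pan-neuronal genes split 6 above and 6 below 0 (median -0.01) and the 10 interneuron genes 5 and 5 (median -0.02), with none at an unadjusted p under 0.05. The 8 cerebellar genes had 7 below 0 and a median of -0.13.

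**Figure D3:**
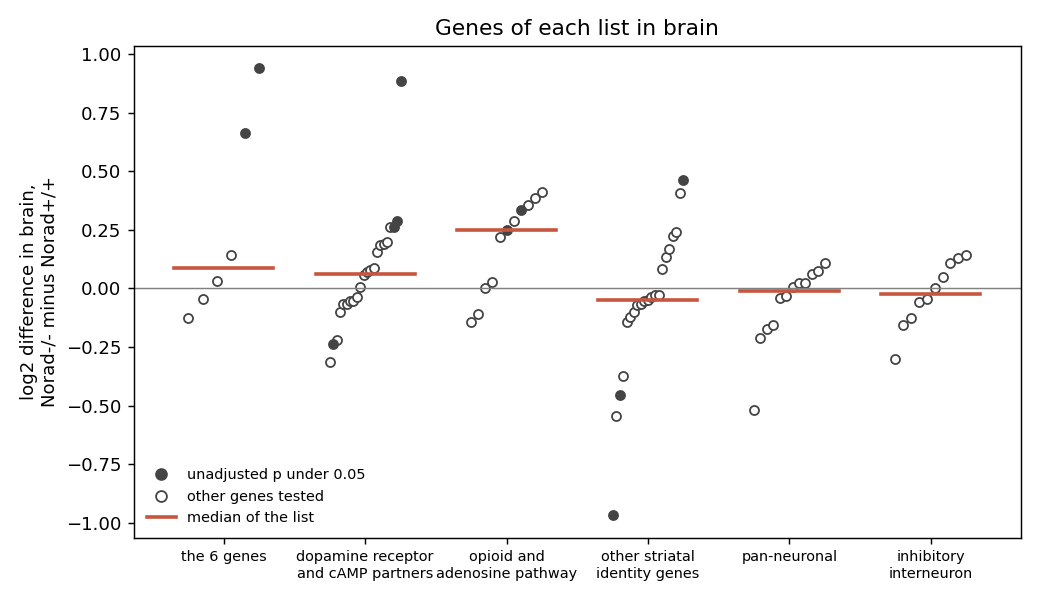
Log2 difference in brain, Norad-/- minus Norad+/+, of each gene tested in the 6 genes and 5 lists of related or other neuronal genes (1 point per gene, sorted within a list), with the median of each list as a red line and filled points at an unadjusted p under 0.05. Medians lie between -0.05 and 0.25, and no point passed after adjustment over all genes.

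Between the tissues the 6 genes parted. Genes with a mean of 1 FPKM or more in at least 1 tissue were tested. Of the 6, 5 were called higher in brain than in spleen, as were 40.7% of the 14967 genes tested across both tissues. Drd2, Ppp1r1b and Pde10a, averaging under 1 FPKM in spleen, entered through brain alone, so they had to differ and their calls describe size only. Penk and Rgs9 had adjusted p of 1.2e-10 and 1.9e-09 (limma). Adora2a was not called. It was at 6.36 to 9.35 FPKM in the brains and at 5.97 to 8.41 in the spleens, and the difference, brain minus spleen and averaged over genotypes, was 0.14 with an interval of -0.06 to 0.34 (limma, adjusted p = 0.168). On the TPM scale, where the median difference of all genes was -0.04 in place of -0.18, it was 0.29 and passed (adjusted p = 0.0155). The receptor encoded by Adora2a is known from immune cells as well as from the striatum.

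The order of the genes turned over in spleen. Adora2a was the highest of the 6 in every spleen library, Penk the next at 1.32 to 3.25 FPKM and Rgs9 the third at 1.13 to 2.14. On the log2 scale the level in brain was above that in spleen by 7.10 for Penk and by 3.61 for Rgs9, the smallest of the called differences. Pde10a, at 0.0473 to 0.0851 FPKM in the spleens, differed by 6.70, and by 4.07 to 7.86 with a pseudocount of 1 or 0.01. Drd2 was listed at 0 in 3 of the spleens, 2 of them Norad+/+, and Ppp1r1b in 2, both Norad-/-. The fitted differences of 7.24 for Drd2 and 9.16 for Ppp1r1b therefore rest on the pseudocount, and with values of 1 and 0.01 ran from 4.27 to 9.68 and from 6.57 to 11.

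**Figure D4:**
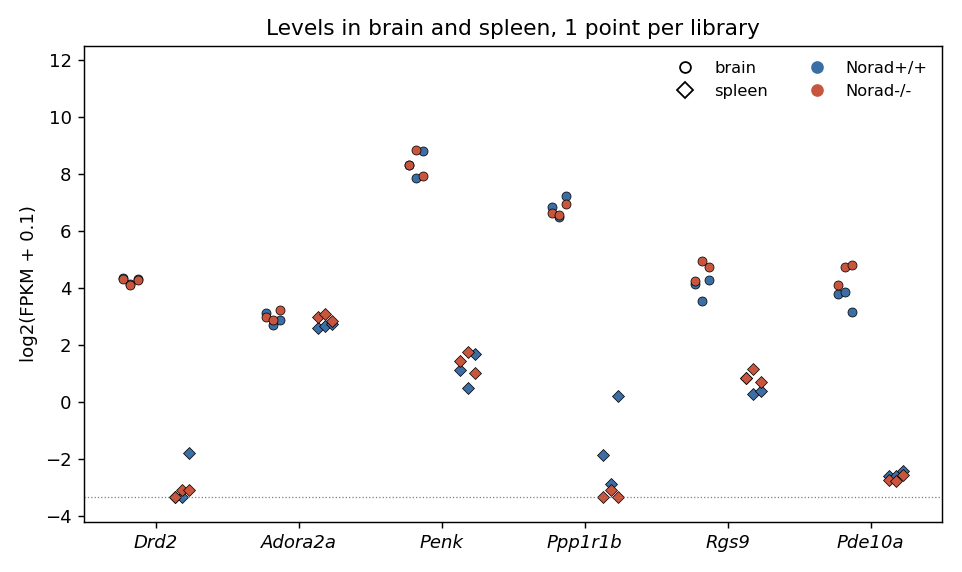
Level of each gene as log2(FPKM + 0.1) in brain (circles) and spleen (diamonds), 1 point per library, Norad+/+ in blue and Norad-/- in red, where the dotted line is a value of 0 FPKM. Adora2a overlaps between the tissues, the other 5 genes do not, and the spleen libraries with the highest Drd2 and Ppp1r1b are both Norad+/+ replicate 3.

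In spleen, 3 of the 6 genes, Adora2a, Penk and Rgs9, reached the mean of 1 FPKM, and none passed. The test called 4 of 12397 genes (0.0323%), Norad among them, and 2600 (21%) had an unadjusted p under 0.05. Adora2a was at 5.97, 6.29 and 6.52 FPKM in Norad+/+ and at 7.88, 8.41 and 7.13 in Norad-/-. Every Norad-/- spleen lay above every Norad+/+ spleen, as 26.5% of all genes tested in spleen did not overlap in one direction or the other. The means were 6.26 ± 0.277 and 7.81 ± 0.643 (SD, n = 3 each), a difference of 0.31 with an interval of 0.08 to 0.54 (limma, unadjusted p = 0.0149, adjusted p = 0.186). On the TPM scale the median spleen difference of all genes was 0.10 in place of -0.02, and that of Adora2a was 0.44. Penk, at 2.10, 1.32 and 3.10 against 2.64, 3.25 and 1.90 FPKM, overlapped and differed by 0.29 with an interval of -0.52 to 1.1 (limma, adjusted p = 0.646). Rgs9, at 1.68, 1.13 and 1.22 against 1.69, 2.14 and 1.53, overlapped and differed by 0.39 with an interval of -0.11 to 0.90 (limma, adjusted p = 0.322).

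Markers of the cells of the spleen moved beside Adora2a. All 8 T cell genes had a difference above 0 and an unadjusted p under 0.05, with a median of 0.65, and none passed after adjustment. Their sum was 245 to 290 FPKM in Norad+/+ and 364 to 431 in Norad-/-. Lck, the kinase of the T cell receptor, was at 61.6, 54.9 and 60.6 against 87.5, 94.5 and 80.5 FPKM. The 4 B cell genes were above 0 (median 0.20) and the 4 macrophage genes below (median -0.61, sums of 290 to 350 against 210 to 260 FPKM). All 5 neutrophil genes and all 6 red cell precursor genes were below 0, with medians of -1.97 and -2.84. Their sums overlapped between genotypes, at 760 to 1971 against 155 to 1041 FPKM for neutrophil genes and 2154 to 5937 against 873 to 3958 for red cell precursor genes. Norad-/- spleen replicate 3 stood apart from the other Norad-/- spleens in both, with a red cell precursor sum of 3958 against 892 and 873. Among the Norad-/- spleens Adora2a and the T cell sum had the same order, replicate 2 above 1 above 3, and among the Norad+/+ spleens they did not. The B cell sum, at 1445, 1480 and 1312 FPKM in Norad-/- replicates 1 to 3, had that order too, as did Penk and Rgs9. The macrophage sum had the order of Adora2a among the Norad+/+ spleens, replicate 3 above 2 above 1, and not among the Norad-/- spleens. The part of the cell makeup in the difference of Adora2a was not tested.

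**Figure D5:**
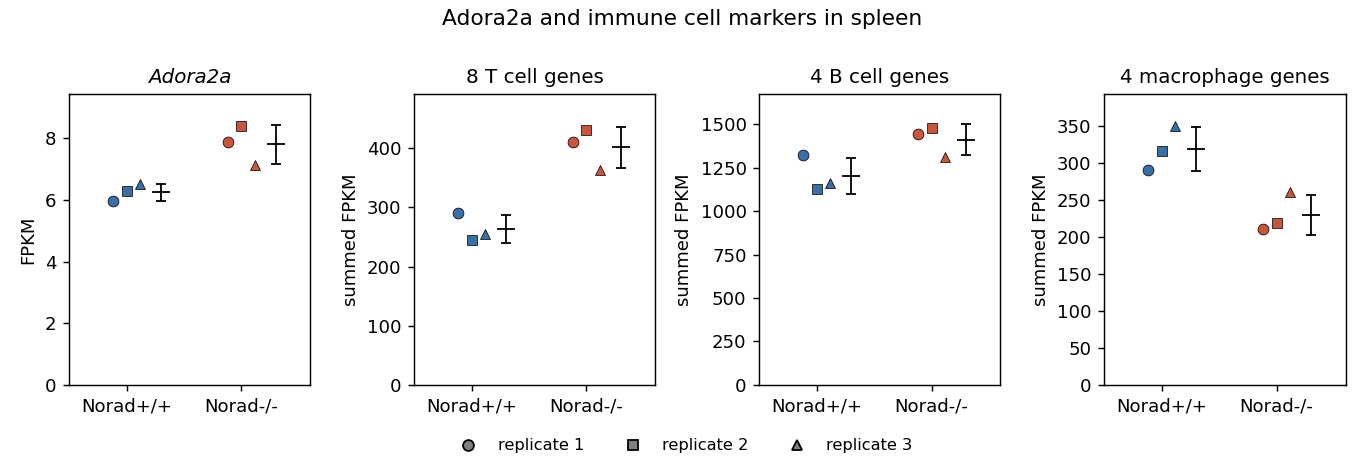
Adora2a in FPKM and the summed FPKM of 8 T cell, 4 B cell and 4 macrophage genes in the spleen libraries, for Norad+/+ (blue) and Norad-/- (red), with symbols for the replicate number and bars for the mean and SD of 3 libraries. Adora2a at 5.97 to 6.52 against 7.13 to 8.41 and the T cell sum at 245 to 290 against 364 to 431 are both higher in Norad-/-, and the macrophage sum is lower.

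The genes under 1 FPKM in spleen were near the limit of these libraries. Ppp1r1b was at 0.177, 0.0369 and 1.06 FPKM in Norad+/+ and at 0, 0.0170 and 0 in Norad-/-, which did not overlap. The share of genes without overlap in spleen, 26.5%, covers only genes averaging 1 FPKM or more and so leaves Ppp1r1b out. The nearest values of the groups, 0.0369 and 0.0170, rest on few reads. The highest value of Ppp1r1b lay in the library with pancreas, liver and neuronal RNA. Drd2 was at 0, 0 and 0.190 against 0, 0.0183 and 0.0168 FPKM, with its highest value in that same library. Pde10a was at 0.0639, 0.0653 and 0.0851 against 0.0517, 0.0473 and 0.0681 FPKM, and overlapped. In a fit without the limit on low values, over 19691 genes, none of these 3 passed (adjusted p = 0.320 for Ppp1r1b, 0.694 for Drd2 and 0.586 for Pde10a).

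Whether the genotype difference itself was unlike in brain and spleen was tested as an interaction over all 12 libraries. None of the 14967 genes passed (0%), while 2201 (14.7%) had an unadjusted p under 0.05, and Pde10a was the only one of the 6 genes among them. Its difference in brain exceeded that in spleen by 1.08 with an interval of 0.38 to 1.78 (limma, unadjusted p = 0.00599, adjusted p = 0.233), from spleen values under 0.1 FPKM. For Adora2a the value was -0.17 with an interval of -0.57 to 0.24 (limma, adjusted p = 0.701) and for Rgs9 0.27 with an interval of -0.48 to 1.02 (limma, adjusted p = 0.741). With 1 library left out they ran from -0.27 (without Norad-/- brain replicate 3) to -0.0577 (without Norad+/+ brain replicate 1) and from 0.0515 (without Norad+/+ brain replicate 2) to 0.47 (without Norad-/- brain replicate 1). The differences of these genes in brain and spleen were thus not shown to be unlike.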

How the data were processed

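Poly(A) RNA was sequenced as stranded single reads. The authors aligned them with TopHat2 2.0.12 to GRCm38 and deposited FPKM per gene made with StringTie 1.2.2 (versions from the submitters' processing notes), 1 table per tissue, with 0 value columns of no sample. The StringTie annotation and strand setting are not given in the sources used here. FPKM hold no counts, so depth was estimated from the smallest steps (44.3% to 49% of low values were whole reads within 2%), and count models were not used.

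Genes averaging 1 FPKM or more over a tissue's 6 libraries were tested on log2(FPKM + 0.1), a scale that understates changes of low genes, with limma 3.58.1 in R 4.3.3 (variance trend, Benjamini-Hochberg over all genes tested, threshold 0.05). The tissue and interaction fits used genes averaging 1 FPKM or more in at least 1 tissue, and all 12 libraries as independent. Mice per library are not named. The study's methods give 3 mice per genotype for brains and spleens, so both tissues likely came from the same animals. The p-values of these fits take no account of that. Named genes are the 6, up to 4 of the most abundant per list described, any list gene that passed, and the 8 that correlated most with the mean of the 6 over the brains. Others are said to be chosen after their values were seen, as were Ptpn5, Pde7b, Mme and Entpd1, named as the genes lower without overlap in their lists. The 6 genes and the lists were chosen with earlier results of these data known. Fits were tested on simulated data. The fits were repeated with a different pseudocount, filter, scaling or variance model, with centring on pan-neuronal genes, with a block by replicate number and with libraries left out. Other tools were matplotlib 3.10.9, numpy 2.4.6, pandas 2.3.3 and Python 3.11.15.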

Additional observations from a re-analysis of the deposited data

How the results depend on the processing

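The directions of Rgs9 and Adora2a in the brain, spleen and interaction fits, of Pde10a in the brain and interaction fits and of the called tissue differences held under all alternatives run, and no genotype difference of the 6 genes passed under any. The number of genes called in brain, 2, was 1 with the replicate block, 1 after centring on pan-neuronal genes, 25 without replicate 3 of both groups and 1 to 15 with each library left out. In spleen, 4 became 2 with no filter, 2 on the TPM scale, 2 after quantile normalization, 1 with the replicate block and 1 to 93 with each library left out. The interaction gave 0 genes, 1 with a pseudocount of 0.01, 16 with a pseudocount of 1 and 0 to 344 with each library left out. The replicate block changed no call of the 6 genes. Same-number correlations of deviations were 0.061 to 0.1102 in brain, each above every different-number value (-0.092 to 0.0402), and -0.1471 to 0.3382 in spleen, where not every library correlated best with its own number. They are a hint from the data, and the labels give no pairing. With a minimum mean of 5 FPKM, Penk and Rgs9 could not be fitted in spleen.

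Differences near 0 turned sign. Drd2 in brain was 0.0239 after centring on pan-neuronal genes and -0.12 to 0.01 with each library left out (above 0 without Norad+/+ replicate 1 at 0.0022 and without Norad-/- replicate 2 at 0.0149). Ppp1r1b in brain ran from -0.31 to 0.0592, above 0 without Norad+/+ replicate 3, and Penk from -0.21 to 0.27, below 0 without Norad+/+ replicate 2 (-0.20) or Norad-/- replicate 2, and was 0.49 without replicate 3 of both groups. In that fit Adora2a was 0.03 and Ppp1r1b -0.06. The interaction of Ppp1r1b, 1.62, was 0.76 without Norad+/+ spleen replicate 3. Penk in spleen ran from -0.0081, without Norad+/+ replicate 2, to 0.58. In the interaction Drd2 ran from -0.20, without Norad+/+ spleen replicate 3, to 0.567, and Penk from -0.543 to 0.0408, without Norad+/+ spleen replicate 2. Adora2a between tissues was 0.29 and passed on the TPM scale, where the median over all genes was -0.04 in place of -0.18. For the others the cause was not tested. With 3 libraries per group, p-values weigh a difference against the spread between these libraries only, which limma draws toward that of the other genes tested. Values under about 0.1 FPKM rest on few reads.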

Other observations

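Of the 30 genes with 1 brain library more than 4 times below the lowest of the others, 14 had it in Norad+/+ replicate 3, 5 in Norad-/- replicate 1, 4 in Norad+/+ replicate 2, 3 each in Norad-/- replicates 2 and 3 and 1 in Norad+/+ replicate 1. Sema6d, which is not among these 30 or the 6 striatal genes and correlated with the mean of the latter across the brains through its low value in Norad+/+ replicate 2, was also 1 of the 4 genes called in spleen, with a log2 difference of -2.83 (limma, adjusted p = 0.0135). It was chosen for mention after its values were seen.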
